A study of Mus musculus with 4 samples.

Results

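The chemokine and chemokine receptor genes were examined in nuclei of mouse inguinal white adipose tissue (iWAT), a subcutaneous fat depot. Members were the protein-coding genes of the mm10 annotation whose symbols start with Ccl, Ccr, Cxcl, Cxcr or Ackr and go on with a number, together with *Cx3cl1*, *Cx3cr1* and *Xcl1*. This rule found 59 of 21951 protein-coding genes, namely 37 ligands, 18 signalling receptors and 4 atypical receptors. A peak of open chromatin on the gene body or the 2000 bases upstream of it was present for 53 members, and the 6 members without one were *Ccl20*, *Ackr1*, *Ccl21b*, *Ccl27b*, *Ccl26* and *Ccr1l1*. Of the members, 46 had a peak within 2000 bases of a start site, and 46 of the 215 member peaks also lay on another gene. For 8 members every peak also lay on another gene, namely *Ackr4*, *Ccl2*, *Ccl19*, *Ccl21a*, *Ccr10*, *Cxcl10*, *Cxcl16* and *Cxcr6*.

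Single-nucleus ATAC-seq (snATAC-seq), which reads where a transposase can cut the DNA of each nucleus, was carried out on 21 mice in 7 groups of 3. All were male C57BL/6 mice aged 8 weeks, with no genetic change given in the labels. The day0RT group stayed at 22 °C, and the day1C, day3C and day7C groups were housed at 6.5 °C for 1, 3 or 7 days. The day1CL, day3CL and day7CL groups received CL-316,243, an agonist of the β3-adrenergic receptor, at 1 mg/kg daily for 1, 3 or 7 days. The paper states that these mice were kept at 22 °C and that day0RT tissue was taken before any intervention. None of the 7 groups is named as a vehicle control. The deposited metadata placed 32552 nuclei in 12 clusters, and each mouse was 1 replicate.

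Chemokines are small secreted proteins that direct the movement of leukocytes. They act on G protein-coupled receptors of the cell surface, whereas atypical receptors (the Ackr genes) bind chemokines without G protein signalling and mostly remove or hold them. In adipose tissue, stromal cells, adipocytes and myeloid cells are known sources of ligands for the receptors of resident and recruited immune cells. Accessible chromatin at a gene marks DNA that regulatory proteins can reach and is not a measure of its RNA or protein.

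Levels are given as CPM, that is, peaks found open at a gene, summed over the nuclei of a cluster in a mouse, counted per 1000000 such counts over all protein-coding genes, and are means ± SD over mice with at least 10 nuclei in that cluster. Each mouse had 1111 to 2021 nuclei and 1340376 to 6916698 counts over all peaks, and the median number of gene counts per mouse ran from 23004 in vascular endothelial cells (VEC) to 581723 in white adipocytes. Lymphocytes made up 11.9% of the nuclei of day1CL replicate 3 and 14.1% of those of day3CL replicate 2, against 36.8% to 90.8% in the other mice. Of all nuclei, 8739 carried a barcode sequence that also occurred in another mouse, and the 18 pairs of mice concerned always had the same treatment and replicate number on different days. Fewer nuclei of a cell state and less open chromatin per nucleus cannot be told apart in such sums.

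Marker genes matched most of the cluster names. The summed B-cell markers reached 2439 CPM in the B-cell cluster, T-cell markers 1709, 1706 and 1405 CPM in the Cd4, Cd8 and Tcell clusters, macrophage markers 626 CPM in macrophages, dendritic-cell markers 834 CPM in dendritic cells, endothelial markers 791 CPM in VEC, and adipocyte markers 1245 and 1109 CPM in white and beige adipocytes. The beige markers summed to 850 CPM in the beige cluster and 487 CPM in the white one. B-cell markers also summed to 1136 CPM in white adipocytes, a list that holds *Ebf1*, a gene adipocytes use as well. The part of *Ebf1* or of B-cell DNA in that sum was not tested. Markers of adipocyte progenitor cells (APC) reached 994 CPM in the APC1 cluster but 237 CPM in the APC2 cluster, where smooth muscle and mural markers stood at 702 CPM. The cluster labelled VSMC held 981 CPM of skeletal muscle markers against 146 CPM of smooth muscle and mural markers. Natural killer (NK) cell markers, 3 of 4 with a peak, summed to 172 CPM in the Cd8 cluster, 64.7 CPM in the Tcell cluster and 53.3 CPM in the Cd4 cluster. Lymph node stroma markers, 5 of 5 with a peak, summed to 123 CPM in APC2, 106 CPM in B cells and 26.9 CPM in APC1, a list that itself holds *Cxcl13* and *Ccl19*. APC2 and VSMC are therefore used below only as the names of those clusters.

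Promoters of 6 members are printed here because an open peak covered most of each window and because these genes carry the differences between cell types described below. RefSeq (GRCm38.p6) windows from 250 bases before to 50 bases after a start were held for 45 members in 52 windows. *Ccl12* (chr11:82101595-82101894, plus strand) led in macrophages, *Ccl22* (chr8:94745434-94745733, plus strand) and *Cxcl2* (chr5:90903649-90903948, plus strand) in dendritic cells, *Cxcl13* (chr5:95956689-95956988, plus strand) in APC2, *Xcl1* (chr1:164935473-164935772, minus strand) in Cd8 T cells and *Ackr3* (chr1:90203730-90204029, plus strand) in APC1. Capitals mark a match, on either strand, to the NF-kB motif GGGANTTTC or the ETS motif GGAAGT.
Ccl12: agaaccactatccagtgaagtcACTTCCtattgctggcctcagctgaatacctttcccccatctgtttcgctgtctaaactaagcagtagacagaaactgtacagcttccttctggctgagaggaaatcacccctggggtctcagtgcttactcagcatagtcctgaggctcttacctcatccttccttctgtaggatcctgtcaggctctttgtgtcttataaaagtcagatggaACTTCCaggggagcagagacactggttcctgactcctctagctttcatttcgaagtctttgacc
Ccl22: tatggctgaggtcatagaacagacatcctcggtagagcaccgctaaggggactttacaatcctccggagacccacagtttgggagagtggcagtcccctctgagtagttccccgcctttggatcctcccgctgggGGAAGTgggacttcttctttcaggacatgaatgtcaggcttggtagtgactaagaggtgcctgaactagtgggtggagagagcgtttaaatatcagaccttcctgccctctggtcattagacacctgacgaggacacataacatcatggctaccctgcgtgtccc
Cxcl2: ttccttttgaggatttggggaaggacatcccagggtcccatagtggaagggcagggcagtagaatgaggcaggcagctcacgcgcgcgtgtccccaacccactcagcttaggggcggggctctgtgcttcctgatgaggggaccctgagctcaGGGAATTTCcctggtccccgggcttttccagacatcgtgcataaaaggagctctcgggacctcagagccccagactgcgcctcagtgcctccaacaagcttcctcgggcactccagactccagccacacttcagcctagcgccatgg
Cxcl13: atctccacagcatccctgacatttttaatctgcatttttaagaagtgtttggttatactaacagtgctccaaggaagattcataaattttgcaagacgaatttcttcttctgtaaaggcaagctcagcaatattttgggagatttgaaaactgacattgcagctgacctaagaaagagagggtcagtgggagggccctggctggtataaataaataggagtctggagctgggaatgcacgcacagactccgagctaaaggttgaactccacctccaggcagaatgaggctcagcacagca
Xcl1: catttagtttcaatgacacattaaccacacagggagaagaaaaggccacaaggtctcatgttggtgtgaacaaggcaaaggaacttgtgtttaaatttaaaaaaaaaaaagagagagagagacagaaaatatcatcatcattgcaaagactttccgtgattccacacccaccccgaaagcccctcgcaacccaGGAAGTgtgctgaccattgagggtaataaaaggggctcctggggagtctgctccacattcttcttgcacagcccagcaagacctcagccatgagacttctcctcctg
Ackr3: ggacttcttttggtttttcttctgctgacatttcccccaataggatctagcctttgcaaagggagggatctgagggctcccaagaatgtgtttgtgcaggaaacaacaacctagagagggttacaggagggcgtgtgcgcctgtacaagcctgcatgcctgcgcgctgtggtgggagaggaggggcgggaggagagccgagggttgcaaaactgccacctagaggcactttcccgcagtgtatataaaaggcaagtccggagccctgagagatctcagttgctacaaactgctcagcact
Peaks covered 269 of the 300 bases of the *Ccl12* window, all 300 of the *Ccl22*, *Cxcl2* and *Xcl1* windows, 219 of the *Cxcl13* window and 259 of the *Ackr3* window. The NF-kB letters were found in 6 of the 52 member windows (11.5%) and in 1.11% of 32851 promoter windows of all genes, with *Cxcl1*, *Cxcl2*, *Cxcl3*, *Cxcl9*, *Ccr3* and *Cxcr2* holding them. The ETS letters were in 19 member windows (36.5%) against 23.8% of all. For the AP-1 motif TGANTCA the shares were 19.2% and 7.81%, and for the interferon-stimulated response element, searched as TTCNNTTTC, 15.4% and 8.56%. These are matches of letters, and neighbouring members such as *Cxcl1*, *Cxcl2* and *Cxcl3* are related copies.

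Receptor genes were most accessible in lymphocytes, whereas ligand genes were spread over myeloid, stromal and adipocyte clusters. Among the 47 members with at least 50 counts in all, 11 of 15 signalling receptors had their highest mean in a lymphocyte cluster, 2 in a myeloid cluster, 1 in a stromal or vascular cluster and 1 in an adipocyte cluster. Of 29 ligands, 11 led in a myeloid cluster, 11 in a stromal or vascular cluster, 4 in an adipocyte cluster and 3 in a lymphocyte cluster. The atypical receptors led in 3 different places, *Ackr4* in white adipocytes, *Ackr2* in B cells and *Ackr3* in APC1. Over all 47 members, 15 led in a lymphocyte, 13 in a myeloid, 13 in a stromal or vascular and 6 in an adipocyte cluster. The stromal or vascular clusters counted were APC1, APC2, VEC and VSMC. Without APC2 and VSMC, a setting chosen after seeing the data, these numbers were 15, 15, 9 and 8. With promoter peaks alone the leading cluster became Cd8 T cells for *Cxcr5* and *Ccr2*, beige adipocytes for *Ackr2*, dendritic cells for *Ccr7*, macrophages for *Ccr9*, APC1 for *Ccl25* and APC2 for *Cx3cl1*. With RefSeq gene models, too, *Ccr2* led in Cd8 T cells and *Ccr9* in macrophages. With these models the ligand *Ccl4* led in macrophages instead of Cd8 T cells, and *Ccl1* in white adipocytes instead of the Tcell cluster.

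Neighbours in this order were seldom apart. The mean minus SD of the leading cluster lay above the mean plus SD of the next cluster for 3 members, *Ccl22*, *Cxcr5* and *Ccr6*. The leading mean was at least 5 times the mean of the other clusters for 23 members and at least 10 times for 9 of them, while for 14 members the leading cluster rested on fewer than 50 counts. The clusters were formed by the authors from the same nuclei, so these levels are a description. Neither these counts nor those of leading clusters by role were made over all genes. They therefore do not set the members apart from other genes.

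**Figure D1:**
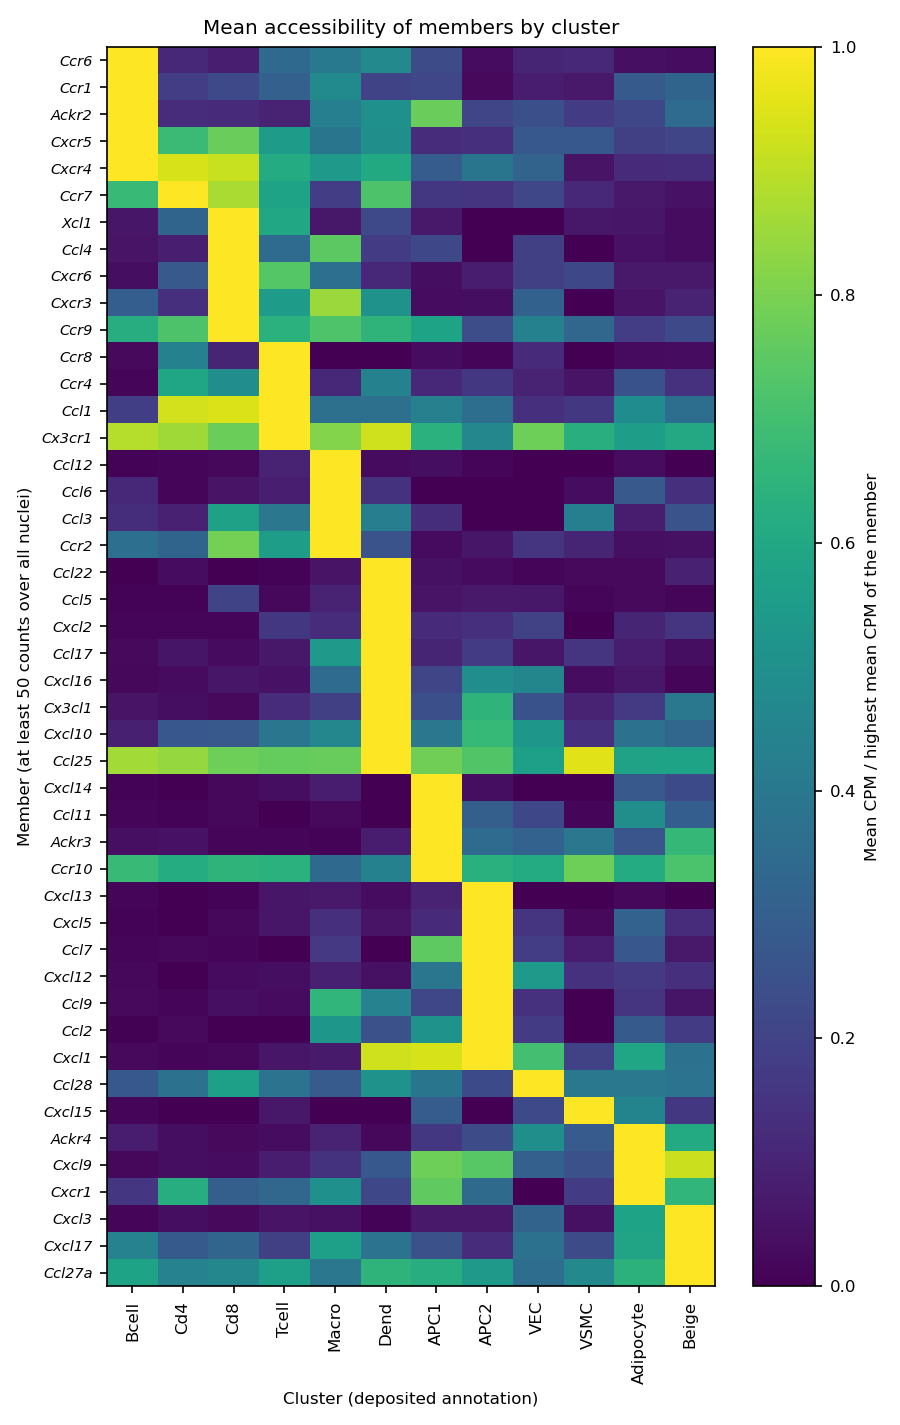
Mean accessibility of the counted members reported here in each of the 12 clusters, drawn as a share of that member's highest cluster. Rows are members and columns clusters, yellow is that member's highest cluster, and most receptors turn yellow in a lymphocyte column.

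B cells led for 5 members. *Ccr6*, the receptor for the mucosal chemokine *Ccl20*, stood at 184 ± 20.3 CPM (SD, n = 21), with 145 CPM in the lowest mouse, a median of 179 CPM and 229 CPM in the highest. The next cluster, dendritic cells, had 86.5 ± 35.0 CPM (n = 17), lower than B cells in 17 of 17 mice with both. *Cxcr5*, which guides B cells into follicles, reached 436 ± 34.3 CPM, with mice from 383 to 504 CPM, against 337 ± 42.9 CPM (n = 20) in Cd8 T cells. The difference between B and Cd8 T cells had the same direction in 19 mice. *Cxcr4*, the receptor that retains lymphocytes in marrow and lymphoid tissue, was nearly level over B cells (197 ± 28.9 CPM), Cd4 T cells (185 ± 40.5 CPM) and Cd8 T cells (181 ± 46.2 CPM), whose ranges overlapped. Per kilobase of gene and upstream DNA, the B-cell level was 32.3 CPM for *Cxcr4*, 8.37 CPM for *Cxcr5* and 7.97 CPM for *Ccr6*. B cells also led for *Ccr1* (22.2 ± 7.44 CPM) and for *Ackr2*, a scavenger of inflammatory ligands (69.0 ± 14.6 CPM, next to 53.1 ± 35.7 CPM in APC1).

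The T-cell clusters differed in the receptors that led. *Ccr7*, the homing receptor of naive T cells and migrating dendritic cells, was highest in Cd4 T cells at 225 ± 55.0 CPM (n = 20), followed by Cd8 T cells at 197 ± 53.3 CPM and dendritic cells at 163 ± 61.5 CPM, with overlapping ranges. In the Tcell cluster, *Ccr8*, a receptor known from regulatory and type 2 helper T cells, was at 45.7 ± 25.7 CPM (range 0 to 108 CPM), 13.7 times the mean of the other clusters, and *Ccr4*, found on the same cell types, was at 59.0 ± 26.3 CPM. Each of these had Cd4 T cells second, at 20.0 ± 14.1 CPM and 34.7 ± 16.3 CPM. Cd8 T cells led for *Cxcr6*, a receptor of tissue-resident T cells, at 67.5 ± 22.5 CPM, and for *Cxcr3*, the receptor for the interferon-induced ligands *Cxcl9* and *Cxcl10*, at 15.9 ± 8.87 CPM. They also led for 2 ligands. *Xcl1*, which attracts cross-presenting dendritic cells, was at 32.4 ± 7.80 CPM with a lowest mouse of 19.5 CPM and a highest of 50.8 CPM, and *Ccl4*, an inflammatory ligand, was at 15.2 ± 8.74 CPM. Macrophages came next for *Ccl4* (11.4 ± 12.5 CPM), with Cd8 T cells above them in 12 of 20 mice, and led with RefSeq gene models. NK cells are known to use *Xcl1*, *Ccl4* and *Cxcr3* as well, and the part of the NK markers of this cluster (172 CPM) in these values was not tested.

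Macrophages and dendritic cells led for different ligands. *Ccl12*, a mouse ligand of *Ccr2*, was at 27.7 ± 20.3 CPM in macrophages (n = 21, median 29.1 CPM, range 0 to 75.9 CPM), 40.9 times the mean of the other clusters, on 49 counts. *Ccl6* in macrophages was at 18.5 ± 17.7 CPM, 12.7 times the mean of the others, and *Ccl3* was at 9.86 ± 13.9 CPM. The receptor *Ccr2* had its highest mean in macrophages as well, 55.1 ± 41.3 CPM, but lay within the spread of Cd8 T cells (43.7 ± 21.2 CPM). In dendritic cells, *Ccl22*, a ligand of *Ccr4*, was at 58.8 ± 40.0 CPM (n = 17, median 55.5 CPM, range 0 to 146 CPM), 33.1 times the mean of the others. These ratios rest on few counts in a mouse, and mice at 0 occurred in both clusters. *Ccl5*, an inflammatory ligand, was at 47.7 ± 31.7 CPM in dendritic cells and 9.71 ± 8.97 CPM in Cd8 T cells. *Ccl17*, the other ligand of *Ccr4*, was also highest in dendritic cells, at 28.5 ± 29.8 CPM, and so was *Cxcl16*, the ligand of *Cxcr6*, at 62.0 ± 36.8 CPM. Dendritic cells led too for the neutrophil attractant *Cxcl2* (25.3 ± 28.9 CPM on 22 counts), for *Cxcl10* (52.4 ± 45.5 CPM) and for *Cx3cl1* (79.4 ± 32.1 CPM, next to 51.5 ± 32 CPM in APC2). All peaks of *Cxcl16* and *Cxcl10* also lay on another gene. *Ccl25*, the ligand of *Ccr9*, ranged little between clusters, from 57.5 CPM in VEC to 102 CPM in dendritic cells.

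Several ligands had their highest mean in APC1 or APC2. *Ccl11* (eotaxin), which attracts eosinophils through *Ccr3*, was at 76.4 ± 46.3 CPM in APC1 (n = 20, range 0 to 176 CPM), followed by 37.6 ± 12.9 CPM in white adipocytes (n = 21, range 19.1 to 74.0 CPM). *Cxcl12*, the ligand of *Cxcr4* and *Ackr3*, was at 91.2 ± 33.8 CPM in APC2, 49.5 ± 46.3 CPM in VEC and 35.6 ± 33.7 CPM in APC1. In APC2, *Cxcl13*, the ligand of *Cxcr5*, was at 21.9 ± 19.8 CPM (n = 19, median 16.2 CPM), 35.4 times the mean of the others on 26 counts. *Ccl21a* and *Ccl19*, the ligands of *Ccr7*, had their highest values there too, 13.3 ± 16.9 CPM and 6.56 ± 14.0 CPM, on 14 and 8 counts, and both belong to families with near-identical copies in the mouse genome. The list of lymph node stroma markers (123 CPM in APC2) itself holds *Cxcl13* and *Ccl19*. The part of such cells in the *Cxcl13*, *Ccl19* and *Ccl21a* values was not tested. The monocyte attractants *Ccl2* (39.7 ± 30.6 CPM) and *Ccl7* (46.4 ± 30.3 CPM) also had their highest means in APC2, within the spread of the next cluster. The *Ccl2* peak also lay on another gene, as did those of *Ccl19* and *Ccl21a*. The neutrophil attractant *Cxcl5* was at 25.2 ± 29.3 CPM in APC2, next to 7.95 ± 6.17 CPM in white adipocytes. *Ccl28*, a mucosal ligand, led in VEC at 63.5 ± 71.8 CPM on 30 counts. *Ackr3*, which scavenges *Cxcl12*, was at 131 ± 89.9 CPM in APC1 (range 0 to 327 CPM) and 87.7 ± 25.5 CPM in beige adipocytes.

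In adipocytes, *Ackr4*, a scavenger of the Ccl19, Ccl21 and Ccl25 proteins, was at 69.4 ± 11.7 CPM in the white cluster (n = 21, range 47.0 to 87.0 CPM), 5.30 times the mean of the others, but all 6 of its peaks also lay on another gene. *Cxcl3*, a neutrophil-attracting ligand, was at 25.7 ± 13.3 CPM in the beige cluster against 14.8 ± 6.94 CPM in the white cluster. Its single peak was centred 3476 bases past the start of a model of 3498 bases, against 1993 bases in RefSeq. *Cxcl9*, an interferon-induced ligand, was nearly level between the white (99.0 ± 19.6 CPM) and the beige cluster (91.1 ± 38.3 CPM), and with promoter peaks alone it led in dendritic cells instead. Of the members whose levels were not yet given, *Ccl27a* led in beige (53.0 ± 30.6 CPM) and *Cxcr1* in white adipocytes (16.1 ± 5.86 CPM), *Ccl9* (48.1 ± 23.9 CPM) and *Cxcl1* (30.2 ± 28.4 CPM) in APC2, *Ccr10* (44.5 ± 44.2 CPM) and *Cxcl14* (14.3 ± 20.8 CPM) in APC1, and *Ccl1* (65.6 ± 20.5 CPM) in the Tcell cluster. With RefSeq gene models *Ccl1* led in white adipocytes. *Cxcl17* was at 12.5 ± 13.4 CPM in beige adipocytes. *Cxcl15* led in the VSMC cluster on only 2 counts. Fewer than 50 counts in all were found for *Cxcr2*, *Ccl19*, *Ccl21a*, *Ccl24*, *Ccr3* and *Ccl8*, of which *Ccr3*, the eosinophil receptor for *Ccl11*, had 17 of 33 counts in macrophages (8.70 ± 12 CPM).

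*Cx3cr1*, the fractalkine receptor and a classical macrophage and microglia gene, had its highest level in the Tcell cluster (541 ± 71.5 CPM), next to dendritic cells (502 ± 140 CPM) and B cells (480 ± 44.3 CPM). Its annotated gene model spanned 168264 bases, against 19614 bases in RefSeq, and 26 of its 45 peaks also lay on other genes. With the RefSeq model, with promoter peaks alone or with peaks on no other gene, *Cx3cr1* led in macrophages. Other members with long models were *Cxcr5* (50091 against 14658 bases), *Ccr9* (105892 against 16247 bases) and *Ccl1* (129034 against 3147 bases).

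**Figure D2:**
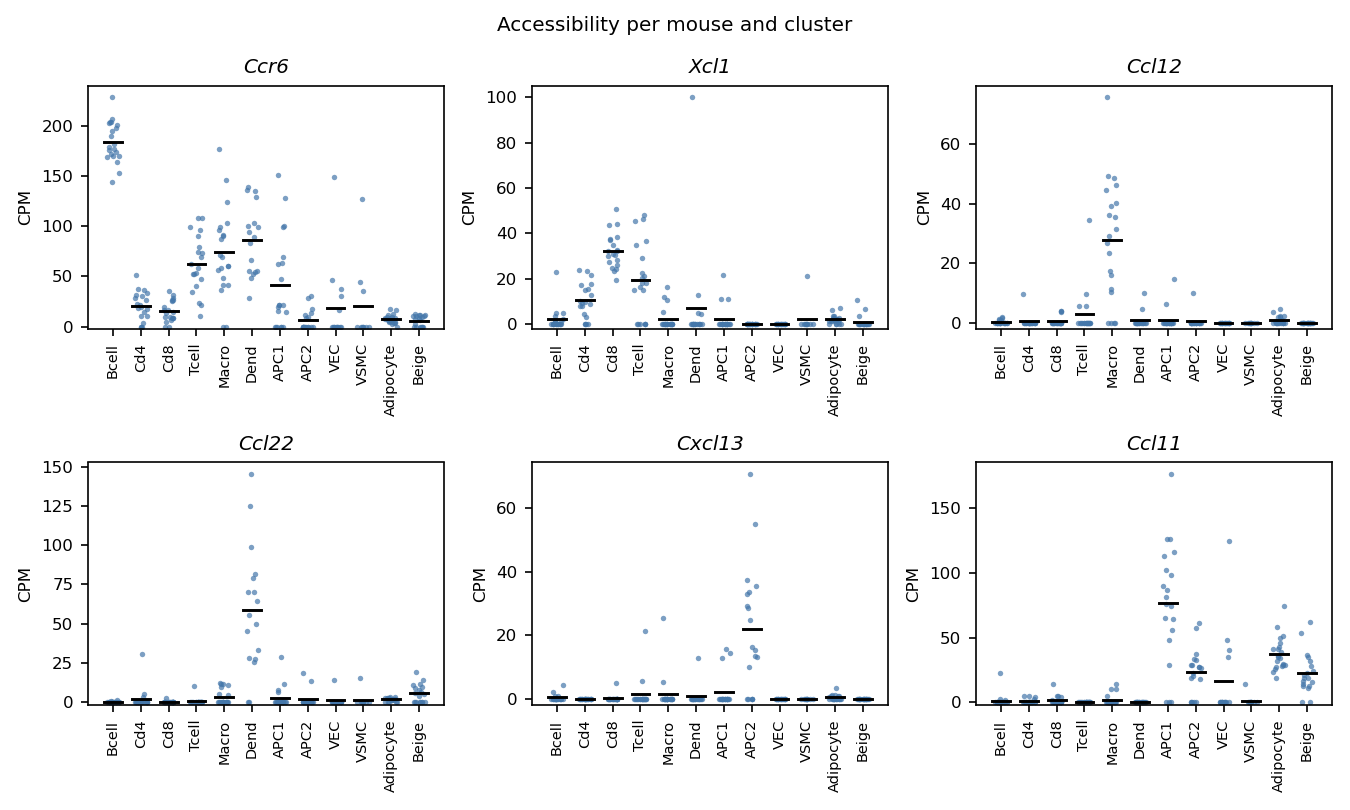
Accessibility (CPM) of selected members in each mouse, one point per mouse, by cluster, with the mean drawn as a bar. *Ccr6* points of B cells lie from 145 to 229 CPM, and many stromal and myeloid points lie at 0.

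Next, related clusters were compared within the same mice by edgeR, with the mouse as a block. All 4 comparisons set 2 clusters side by side that the authors separated on the same nuclei, so p-values say how steady a difference was over mice and are not independent of the clustering. A filter on low counts left few members in the small clusters, and values without that filter, an alternative setting, are given alongside.

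Beige adipocytes differed from white adipocytes at 4 of the 11 members that passed the filter, 2 in each direction, against 30.4% of all genes tested. The atypical receptor *Ackr3* was at 87.7 ± 25.5 CPM in beige nuclei (n = 19, lowest 42.7, median 90.6, highest 128 CPM) and 34.6 ± 6.03 CPM in white nuclei (23.3, 34.9 and 47.0 CPM). Beige was above white in 19 of 19 mice, with a log2 fold change of 1.42 ± 0.11 (SE) and an edgeR adjusted p of 3.43e-20. *Ccl11* was lower in beige nuclei, at 22.9 ± 15.8 against 39.1 ± 12.7 CPM, in 16 of 19 mice (log2 fold change -0.75 ± 0.17, edgeR adjusted p = 0.000187). *Ackr4* was also lower, at 42.5 ± 23.1 against 69.1 ± 11.3 CPM, in 16 of 19 mice (-0.52 ± 0.12, edgeR adjusted p = 0.000392). *Cx3cr1* was slightly higher, at 327 ± 88.9 against 290 ± 27.7 CPM, in 17 of 19 mice (0.20 ± 0.06, edgeR adjusted p = 0.00752). The ranges of beige and white nuclei overlapped for all 4. *Cx3cr1* has the long model named above, with 26 of its 45 peaks on other genes, and all 6 peaks of *Ackr4* also lay on another gene.

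Without the filter, 10 of 53 members passed the test between beige and white adipocytes, 6 higher and 4 lower in beige, against 24.3% of genes. These added *Cx3cl1*, the membrane-bound ligand of *Cx3cr1*, which was higher in beige nuclei by 1.22 ± 0.18 on the log2 scale (edgeR adjusted p = 6.32e-10). *Ccl7*, a monocyte-attracting ligand, was lower in beige nuclei by a log2 fold change of -1.91 ± 0.33 (edgeR adjusted p = 3.39e-07). *Cxcl3* was higher by 0.64 ± 0.19 (edgeR adjusted p = 0.00567), from the single peak named above. Also higher were *Ccl22* (1.32 ± 0.44, edgeR adjusted p = 0.0148) and *Ackr2* (0.51 ± 0.20, edgeR adjusted p = 0.0473). *Cxcl15* was lower (-2.03 ± 0.61, edgeR adjusted p = 0.00606).

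Macrophages and dendritic cells could be compared at 3 members that passed the filter, of which 2 were called against 60.9% of genes. *Cxcr5* was lower in macrophages, at 167 ± 71.0 against 218 ± 43.6 CPM, in 13 of 17 mice (-0.33 ± 0.15, edgeR adjusted p = 0.0484). *Ccr9*, the receptor for *Ccl25*, was higher, at 199 ± 51.8 against 163 ± 73.1 CPM, in 13 of 17 mice (0.40 ± 0.16, edgeR adjusted p = 0.0193). Both calls were lost with DESeq2, at adjusted p = 0.0641 and 0.109, and both genes have long models.

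The ligands that set these clusters apart were too sparse for the filter. Without it, 11 of 49 members passed, 3 higher and 8 lower in macrophages, against 13.6% of genes. *Ccr2*, the receptor by which monocytes leave the marrow, was higher in macrophages (55.1 ± 41.3 CPM over all 21 mice) by 2.00 ± 0.34 on the log2 scale (edgeR adjusted p = 1.98e-07), and its ligand *Ccl12* by 3.18 ± 0.66 (edgeR adjusted p = 3.54e-05). *Ccr7* was lower in macrophages, at 45.4 ± 49.0 against 163 ± 61.5 CPM, in 15 of 17 mice (-2.03 ± 0.21, edgeR adjusted p = 5.93e-19). Also lower were *Ccl5* (-3.71 ± 0.50, edgeR adjusted p = 1.27e-11), *Ccl22* (-3.11 ± 0.45, edgeR adjusted p = 2.91e-10), *Cx3cl1* (-1.90 ± 0.32) and *Cxcl16* (-1.45 ± 0.31). The remaining members lower in macrophages were *Cxcl1*, *Cxcl2* and *Cxcl10*, the first pair neutrophil attractants and the last an interferon-induced ligand. Their log2 fold changes were -2.47, -2.39 and -1.0. Not called were *Ccl6* (1.78 ± 0.71, edgeR adjusted p = 0.0774), *Ccl3* (0.57 ± 0.84, edgeR adjusted p = 0.773) and *Ccl17* (-0.84 ± 0.40, edgeR adjusted p = 0.179). All peaks of *Cxcl10* and *Cxcl16* also lay on another gene.

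Cd4 and Cd8 T cells differed at 5 of 8 members, 2 higher and 3 lower in Cd4 T cells, against 18.9% of genes. *Cxcr6* was at 18.9 ± 12.1 CPM in Cd4 (n = 20, lowest 0, median 22.4, highest 39.3 CPM) and 67.5 ± 22.5 CPM in Cd8 T cells (29.0, 62.3 and 114 CPM). Cd8 was higher in 19 of 20 mice (-1.75 ± 0.16, edgeR adjusted p = 6.44e-27), although all 3 peaks of *Cxcr6* lay also on another gene. *Cxcr6* passed the filter mainly through the Cd8 libraries, and it was also called without the filter (edgeR adjusted p = 2.53e-27). *Ccr9* was lower in Cd4 T cells in 20 of 20 mice, at 181 ± 38.1 against 251 ± 36.5 CPM (-0.46 ± 0.07, edgeR adjusted p = 4.01e-11). *Ccr7* was higher in Cd4 T cells in 14 of 20 mice (0.24 ± 0.07, edgeR adjusted p = 0.00248). *Cx3cr1* was higher as well (0.23 ± 0.05, edgeR adjusted p = 2.23e-05), and *Cxcr5* was lower (-0.14 ± 0.05, edgeR adjusted p = 0.0455). The *Cxcr5* call was lost in 18 of 28 other settings, among them DESeq2 (adjusted p = 0.0896) and no filter (0.0598). *Ccr9*, *Cx3cr1* and *Cxcr5* have the long models named above, and with RefSeq models 3 members were called between these clusters.

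Without the filter, 13 of 50 members passed between Cd4 and Cd8 T cells, 3 higher and 10 lower in Cd4, against 12.2% of genes. The lower group held the inflammatory ligands *Ccl3* (-2.29 ± 0.61), *Ccl4* (-3.36 ± 0.47) and *Ccl5* (-3.26 ± 0.61), with edgeR adjusted p of 0.00247, 6.5e-11 and 2.28e-06. It also held *Xcl1* (-1.48 ± 0.22, edgeR adjusted p = 7.46e-10) and the receptors *Cxcr3* (-2.65 ± 0.40) and *Ccr2* (-1.0 ± 0.18). *Ccr8* was higher in Cd4 T cells (1.65 ± 0.31, edgeR adjusted p = 4.18e-06). The NK markers (172 CPM in Cd8 against 53.3 CPM in Cd4 T cells) moved with these members, and their part was not tested. *Cxcl12* was called lower too, but every Cd4 library was at 0, and no fold is given.

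In the APC1 and APC2 clusters only *Cx3cr1* passed the filter, and it was called higher in APC1, at 349 ± 88.9 against 253 ± 62.5 CPM (0.43 ± 0.14, edgeR adjusted p = 0.00466), against 61% of genes. This call was lost without the filter (edgeR adjusted p = 0.445). *Cx3cr1* has the long model named above, and no member was called between these clusters with RefSeq models. Without the filter 14 of 51 members were called, 6 higher and 8 lower in APC1, against 15.7% of genes. Higher in APC1 were *Ackr3* (134 ± 94.4 against 46.4 ± 28.9 CPM, log2 fold change 1.44 ± 0.26, edgeR adjusted p = 6.55e-07) and *Ccl11* (75.6 ± 48.4 against 24.4 ± 17.6 CPM, 1.4 ± 0.32, edgeR adjusted p = 0.000182). *Cxcl14*, a ligand of epithelia and stroma, was also higher in APC1 (2.51 ± 0.82, edgeR adjusted p = 0.0169), as were *Ackr2*, *Ccr6* and *Ccr9*. Higher in APC2 were the homeostatic ligands *Cxcl12* (-1.4 ± 0.29, edgeR adjusted p = 2.81e-05) and *Cxcl13* (-2.56 ± 0.70, edgeR adjusted p = 0.00291). The lymph node stroma markers were also higher in APC2, but that list itself holds *Cxcl13*, and their part was not tested. *Ccl9*, *Cxcl5*, *Cx3cl1*, *Cxcl16* and *Cxcr4* were higher in APC2 as well, by log2 fold changes of -2.57 to -0.96. The *Cxcl16* peak also lay on another gene. *Ccl21a* was at 0 in every APC1 library of this comparison and is given without a fold.

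**Figure D3:**
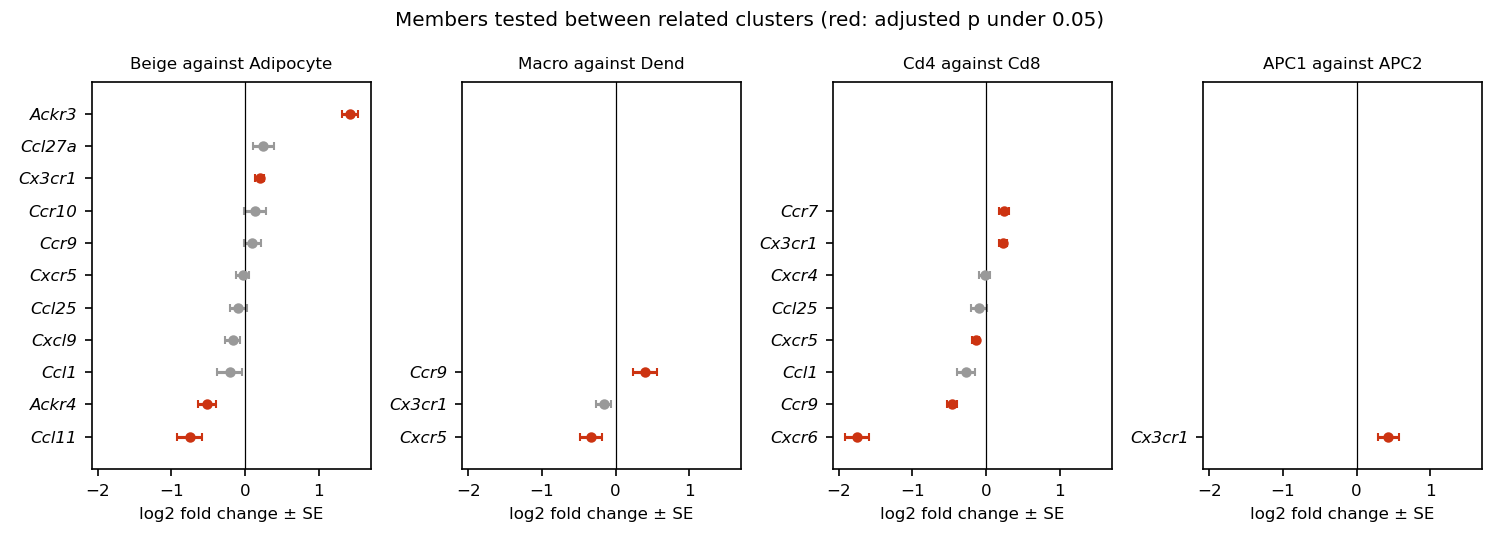
Log2 fold change with SE (edgeR) of the members that passed the filter in the 4 comparisons of related clusters, with those called in red. *Ackr3* at 1.42 in beige against white adipocytes and *Cxcr6* at -1.75 in Cd4 against Cd8 T cells lie farthest from 0.

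To ask whether cold or CL-316,243 changed these genes, each treated group was compared with day0RT in 8 sets of nuclei by edgeR, with white and beige adipocytes summed. Dendritic cells, VEC and the VSMC cluster had too few nuclei in too many mice. In adipocytes, 27 members passed the filter and 2 were called in at least 1 of the 6 treated groups, *Ccl11* and *Ccr1*, against 11.9% of all genes. The median log2 fold change over these members was 0.01 to 0.13, beside -0.01 to -0.00 over all genes.

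*Ccl11* accessibility was lower in adipocytes of treated mice. In day0RT the 3 mice had 67.5, 42.1 and 56.6 CPM. The day1C mice had 48.0, 47.1 and 35.3 CPM, the day3C mice 35.8, 32 and 43.5 CPM, and the day7C mice 31.0, 25.5 and 35.7 CPM. The day1CL mice had 40.9, 16.9 and 27.1 CPM, the day3CL mice 30.6, 27.5 and 21.8 CPM, and the day7CL mice 24.2, 25.0 and 30.5 CPM. Every day7C, day1CL, day3CL and day7CL mouse lay below the lowest day0RT mouse, whereas day1C and day3C mice overlapped with day0RT.

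The log2 fold change of *Ccl11* was -0.38 ± 0.21 in day1C (edgeR adjusted p = 0.572), -0.65 ± 0.19 in day3C (0.0485) and -0.85 ± 0.21 in day7C (0.00558). With CL-316,243 it was -1.12 ± 0.25 in day1CL (edgeR adjusted p = 0.00391), -1.13 ± 0.20 in day3CL (5.73e-05) and -1.17 ± 0.20 in day7CL (3.68e-05). All 6 comparisons share the same 3 day0RT mice. The day3C call was lost in 14 of 29 other settings but held in white adipocytes alone (-0.68, edgeR adjusted p = 0.0485). The day7C call was lost in white adipocytes alone (-0.55, adjusted p = 0.202). Leaving out day0RT replicate 1 or 3 also ended the day7C call (edgeR adjusted p = 0.0593 and 0.0516) and the day3C call (0.243 and 0.208). The day1CL call was lost without day1CL replicate 3 (-1.41, adjusted p = 0.444). The other mice of that group had only 29 and 68 adipocyte nuclei, and the cause of the loss was not tested. DESeq2 called 0 of the 162 tests of members in adipocytes and set the adjusted p of *Ccl11* to NA, with unadjusted p of 3.3e-05 for day3CL and 3.6e-05 for day7CL. In white adipocytes alone, the CL calls of days 1, 3 and 7 held (-1.11, edgeR adjusted p = 0.00899 for day1CL). There *Ccl11* was 57.7 ± 16.5 CPM in day0RT, 27.8 ± 4.44 CPM in day3CL and 29.2 ± 4.45 CPM in day7CL.

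Other measures of the same nuclei were set beside *Ccl11*. Beige nuclei, in which *Ccl11* was lower, made up 9.22 ± 2.62% of adipocyte nuclei in day0RT, 10.4 ± 3.30% in day1C, 12.2 ± 3.21% in day3C and 29.4 ± 3.20% in day7C (SD, n = 3, no test). With CL-316,243 the share was 14.2 ± 6.67% in day1CL, 12.8 ± 7.06% in day3CL and 20.0 ± 4.85% in day7CL. *Adipoq*, the adiponectin gene, was at 222 ± 36.5 CPM in day0RT and 123 ± 31.8 CPM in day7CL, with a log2 fold change of -0.92 ± 0.14. The summed adipocyte markers, 5 of 5 with a peak, ranged from 1064 to 1550 CPM over the group means and were 1436 CPM in day0RT. The summed progenitor markers, 6 of 6 with a peak, ranged from 432 to 503 CPM and were 465 CPM in day0RT. B-cell markers went from 1026 to 1253 CPM and T-cell markers from 114 to 146 CPM over the group means. Their part in the *Ccl11* values was not tested. In APC1, the cluster where *Ccl11* was highest, the group means lay between 59.4 and 97.4 CPM with 7 to 31 counts a group, too few for the test.

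Most *Ccl11* counts came from one peak, downstream of the start. The 4 peaks of *Ccl11* were centred 2, 1963, 2710 and 4504 bases from the start, and the last one, 679 bases long, held 517 counts over all nuclei. At the peak on the start itself, the adipocyte level was 7.11 ± 6.50 CPM in day0RT and 0.57 ± 0.53 CPM in day7CL, on 8 and 3 counts. With promoter peaks alone, only the day3CL call remained (-1.72, edgeR adjusted p = 0.0249). The other log2 fold changes of *Ccl11* at promoter peaks were -0.90 in day3C, -1.09 in day7C, -2.07 in day1CL and -1.48 in day7CL, with edgeR adjusted p of 0.465, 0.286, 0.091 and 0.0654.

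*Ccr1*, a receptor for inflammatory ligands such as *Ccl3* and *Ccl5*, rose in day3CL. The day0RT mice had 2.04, 7.02 and 3.47 CPM and the day3CL mice 8.75, 13.4 and 14.0 CPM, without overlap. The log2 fold change was 1.83 ± 0.54 (edgeR adjusted p = 0.0314), on 6 and 68 counts. Nearly all of the day3CL level, 11.6 of 12 CPM, came from a peak centred 3752 bases past the start and not from the peak near the start. Leaving out day0RT replicate 1 or 3 ended the call (adjusted p = 0.165 and 0.209), and DESeq2 gave *Ccr1* an adjusted p of NA (unadjusted p = 0.018). The summed macrophage markers in adipocyte nuclei were 208 CPM in day0RT and 231 CPM in day3CL. Among the clusters, *Ccr1* was highest in B cells (22.2 CPM), ahead of macrophages (10.5 CPM). The part of either cell type in the *Ccr1* values of adipocytes was not tested.

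**Figure D4:**
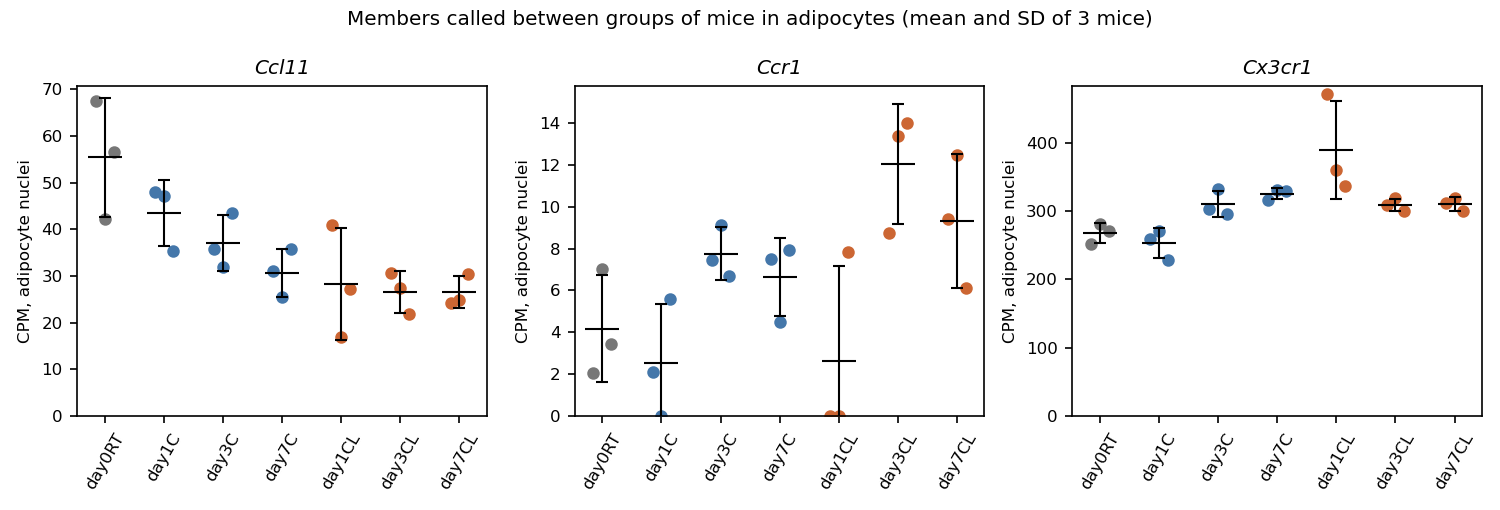
Accessibility (CPM) in adipocyte nuclei of each mouse (points) by group for *Ccl11*, *Ccr1* and *Cx3cr1*, with the mean and SD of 3 mice. *Ccl11* means go from 55.4 CPM in day0RT to 26.5 CPM in day7CL, and *Ccr1* means from 4.18 CPM in day0RT to 12 CPM in day3CL.

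In the other 7 sets of nuclei, no member was called in a treated group against day0RT. Members passing the filter numbered 14 in B cells, 14 in Cd8 T cells, 8 in Cd4 T cells, 7 in the Tcell cluster, 4 in macrophages, 2 in APC1 and 1 in APC2. Of the 300 tests of members, edgeR called 0, 21 had an unadjusted p under 0.05, and DESeq2 called 0. Few genes of any kind were called in these sets, namely 3.63% in B cells, 0.193% in Cd8 T cells, 0.114% in Cd4 T cells, 0.103% in the Tcell cluster, 0.0844% in macrophages, 0.0688% in APC1 and 0.0496% in APC2. The count of 0 for the members is thus near the background of these sets and does not show that the members were unaltered.

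CL-316,243 was also set against cold on the same day. In adipocytes, 1 of 27 members was called on any of the 3 days, *Cx3cr1*, against 2.36% of genes. The day1CL mice had 471, 360 and 336 CPM of *Cx3cr1*, and the day1C mice 260, 270 and 229 CPM. These groups did not overlap (0.46 ± 0.12, edgeR adjusted p = 0.037), but the highest value came from 29 nuclei with 23 counts, and the call was lost in 13 of 29 other settings. With the RefSeq model instead of the long one, the log2 fold change was 1.36 (edgeR adjusted p = 0.167). *Ccl11* differed between CL-316,243 and cold by -0.75 ± 0.26 on day 1, -0.48 ± 0.16 on day 3 and -0.32 ± 0.20 on day 7, with edgeR adjusted p of 0.156, 0.118 and 0.714. In the other 7 sets, edgeR called 0 of 150 tests of members, 9 had an unadjusted p under 0.05 and DESeq2 called 0. The share of all genes called there was 0.27% in B cells, 0.149% in APC2, 0.0563% in macrophages, 0.0289% in Cd8 T cells, 0.0104% in Cd4 T cells, and 0% in APC1 and in the Tcell cluster.

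Signalling genes downstream of chemokine receptors were taken as a list of 30, all with a peak. Between beige and white adipocytes 23 were tested, 4 were higher and 6 lower in beige, against 30.4% of all genes tested, with a median log2 fold change of -0.04 beside 0.01 over all genes. The higher ones were *Grk3* (1.69 ± 0.13), *Ptk2b* (0.45 ± 0.07), *Rgs2* (0.39 ± 0.11) and *Grk5* (0.38 ± 0.05), of which the Grk genes encode kinases that switch receptors off. The lower ones included *Elmo1* (-0.67 ± 0.07) and *Dock2* (-0.44 ± 0.12), whose proteins act together on Rac in migrating cells, and the G protein gene *Gnai3* (-0.45 ± 0.10). Between macrophages and dendritic cells 3 of 11 were higher and 2 lower, against 60.9% of genes, and between Cd4 and Cd8 T cells 0 of 24 were higher and 4 lower, against 18.9%. In the APC clusters 1 of 4 was higher and 1 lower in APC1, against 61% of genes.

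In adipocytes of treated mice, at most 1 of 26 signalling genes was called in any group, while 1.68% of all genes were called in day3C, 2.61% in day1CL and 4.77% in day3CL. *Elmo1* was higher in day3C (0.47 ± 0.12, edgeR adjusted p = 0.0222), *Ptk2b* in day1CL (0.51 ± 0.14, edgeR adjusted p = 0.035) and *Grk5* in day3CL (0.33 ± 0.10, edgeR adjusted p = 0.0424). *Rgs2*, which limits G protein signals, was higher in day3CL than in day3C (0.72 ± 0.13, edgeR adjusted p = 0.000553), a contrast with 1.46% of genes called. In B cells, with 2.68% of genes called in day1CL, *Grk2* was lower in that group (-0.37 ± 0.11, edgeR adjusted p = 0.0425).

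Related genes that the symbol rule left out were listed as 6, of which 5 had a peak. *Rarres2*, which encodes the adipokine chemerin, and *Cmklr1*, its receptor, were both lower in beige than in white adipocytes, by log2 fold changes of -0.92 ± 0.17 (edgeR adjusted p = 5.42e-06) and -1.36 ± 0.08 (edgeR adjusted p = 3.94e-26). In that comparison 30.4% of all genes tested were called. *Cmklr1* was at 286 CPM in white adipocytes, 171 CPM in macrophages and 123 CPM in beige adipocytes. *Cmklr1* was lower in day1CL adipocytes (-0.51 ± 0.14, edgeR adjusted p = 0.0198) and *Rarres2* in day7CL adipocytes (-0.72 ± 0.22, edgeR adjusted p = 0.0287). Of all genes, 2.61% were called in day1CL and 7.81% in day7CL. White and beige nuclei were summed there, and the part of the beige share in these values was not tested. *Xcr1*, the receptor for *Xcl1*, was at 45.7 CPM in dendritic cells and 44.4 CPM in macrophages.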

How the data were processed

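Deposited files were a matrix of 189598 peaks by nuclei in mm10 coordinates and metadata with the mouse, group and cluster of each nucleus. The authors merged sequencing runs, aligned reads with Bowtie2, removed low-quality and duplicate reads, called peaks with MACS2, removed putative doublets and clustered nuclei. The deposited counts were binary: 1 where a nucleus had reads in a peak (65588856 such entries, with 145 stored zeros). Here entries of peaks on the gene body (GENCODE vM21) or 2000 bases upstream were summed per gene, mouse and cluster, for libraries of at least 10 nuclei. The 4 sequencing lanes each held all mice, so mice were taken from the metadata.

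Counts were tested with edgeR 4.0.16 (R 4.3.3, filterByExpr minimum 10, TMM, quasi-likelihood test, two-sided) and Benjamini-Hochberg adjustment over all genes of a contrast, at 0.05. Clusters entered the treatment tests with at least 2 mice in every group. Scripts were tested on simulated data. Alternatives included DESeq2 1.42.0, no filter, promoter peaks only, other minimum numbers of nuclei and leaving out each mouse. Separate mice were taken as replicates.

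The members and lists were chosen with earlier results of these data known. Named were the 3 members per cluster with the largest ratio to the other clusters, members called in a contrast (up to 10 with the smallest p) and ligand and receptor axes. Others were chosen after their values were seen. Counting error is limited by the depth of each cluster. Some genes that the rule or lists hold are counted but not reported here by name.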

Additional observations from a re-analysis of the deposited data

Results flagged for a closer look

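*Cx3cr1* in adipocytes stood out because its difference between CL-316,243 and cold on day 1 passed the test of that difference. The log2 fold change was 0.46 ± 0.12 (edgeR adjusted p = 0.037), from 389 ± 71.8 CPM in day1CL and 253 ± 21.6 CPM in day1C (SD, n = 3). On days 3 and 7 the values were 0.03 ± 0.09 and -0.05 ± 0.09. No search for outlying values within a group was made, since each group held 3 mice. Each mouse was left out in turn, and a setting chosen after seeing the data left out the 2 mice with the lowest lymphocyte share.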

How the results depend on the processing

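None of the fold changes of members called with the filter changed direction in the settings in which it was refitted. Of the calls between related clusters, only *Ccr7* in Cd4 against Cd8 T cells could be refitted with promoter peaks. The others did not pass the filter there. *Cxcr6* could be refitted in only 11 other settings and was called in each. It passed the filter mainly through the Cd8 T cells in which it was high, so these calls are not independent support. Members called between beige and white adipocytes numbered 4, and 10 without the filter or 0 with promoter peaks only. Between macrophages and dendritic cells there were 2, and 11 without the filter, 1 with at least 5 nuclei, and 0 with DESeq2, promoter peaks or RefSeq models (chosen after seeing the data), with 0 to 2 when a mouse was left out. Between Cd4 and Cd8 T cells there were 5, and 13 without the filter, 0 with promoter peaks, 3 with RefSeq models, and 3 to 5 without a mouse. Between APC1 and APC2 there was 1, and 14 without the filter and 0 with promoter peaks or RefSeq models. In adipocytes 2 members were called after treatment, 1 with promoter peaks, 0 with DESeq2, whose adjusted p of both was NA, and 1 to 2 without a mouse. In the other clusters 0 became 0 to 1 without a mouse, the calls being *Ccl28* in B cells (day1CL, adjusted p = 0.0433) and *Ccr9* in macrophages (day1CL, adjusted p = 0.0296). The 1 call of CL-316,243 against cold became 0 with DESeq2, no filter, promoter peaks, at least 30 nuclei, white adipocytes, RefSeq models or without the 2 mice with the lowest lymphocyte share, and 0 to 1 without a mouse. Members leading in an adipocyte cluster numbered 6, and 3 with promoter peaks and 12 per nucleus. The cause was not tested, beyond fewer counts with promoter peaks and more genes tested without the filter.

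Over all genes, calls went from 3258 to 739 (beige against white), 554 to 4 (macrophages against dendritic cells), 1495 to 327 (Cd4 against Cd8) and 408 to 0 (APC1 against APC2) with promoter peaks. Without the filter the macrophage and APC comparisons had 2305 and 2666. In treated adipocytes 1724 became 517 with DESeq2, 277 with promoter peaks and 1049, 1090 or 870 without day0RT replicate 1, 2 or 3.

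The treatment groups held different mice that share a number in the metadata. Treated mice of the same treatment and number also shared barcode sequences across days. The paper states that its 3 batches were performed independently of each other. Each group held 3 mice, and the metadata do not say whether the number names a batch. In adipocytes, correlations across genes between same-numbered mice of different groups ran from -0.11 to 0.15 over 63 pairs. Their median was -0.00, as it was between mice with other numbers. Of 21 mice, 10 correlated best with their own number, and in B cells 8 did. The number to be found without a batch was not computed. Whether the number names a batch was not tested. With that number as a replicate block, chosen after seeing the data, 2 members were called in treated adipocytes, 0 in the other clusters, and 1 for CL-316,243 against cold, with the day3C call of *Ccl11* lost (adjusted p = 0.0634). Without the mouse block, the cluster comparisons called 4, 2, 4 and 1 members, *Cxcr5* between Cd4 and Cd8 T cells being lost (adjusted p = 0.0926). In the small clusters, depth limited the number of members tested.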
